A study of Mus musculus with 20 samples.

Results

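The 65 genes described here carry only a provisional clone name ending in Rik in the annotation of the arrays, and their transcripts were strong in the mouse testis on days 30 and 35 after birth and weak on days 0 to 8. They were chosen from measured values. Of 18193 genes that had a probe set with a single symbol, 1294 had a symbol ending in Rik. A gene was taken where its probe set averaged at least 1000 intensity units over the 4 arrays of days 30 and 35 and under 100 over the 8 arrays of days 0, 3, 6 and 8. Where a gene had several probe sets, the one brightest on average (mean log2 intensity) stood for it. An intensity is the brightness of a probe set on the array, on a linear scale, and serves to follow 1 gene across arrays rather than to rank genes. The level on days 30 and 35 and the low level on days 0 to 8 are therefore set by the choice of genes, and what the data add is when each gene rose in between.

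Total RNA of whole postpartum testis was measured on 20 arrays, 2 for each of 10 days: days 0, 3, 6 and 8, days 10 and 14, days 18 and 20, and days 30 and 35, with no treatment or genotype given in the labels. The strain and the number of animals behind a sample are not given in the sources used here, and nothing states that the 2 arrays of a day came from separate animals, so p-values measure the spread between these samples, which may be technical. The array titled day 18 replicate 2 names day 0 as its source in another label and was analysed under its title. The summed intensity of 19 markers of pachytene spermatocytes, none of them among the 65 genes, was 28815 and 30484 on the 2 arrays titled day 18 and 434 and 464 on the 2 titled day 0. Array medians ran from 29.4 to 43.4 units. Because the tissue is whole testis, more cells of a type and more RNA per cell cannot be told apart.

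The symbols come from the RIKEN collection of mouse full-length complementary DNA clones. A Rik symbol is a placeholder that stays until a gene is given another official symbol, and its leading 4 characters give the clone library. In the testis after birth, spermatogonia divide first, a first wave of germ cells then enters meiosis as spermatocytes, and these pass through the long pachytene stage before they divide into round spermatids. The round spermatids then elongate, build the acrosome and flagellum and pack their DNA with protamines. Germ cells of this first wave advance nearly in step, so that the day a transcript appears is widely read against the most advanced cell type present.

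All 65 genes were matched by Entrez identifier to the RefSeq gene table of mouse assembly GRCm38.p6, and all 65 still had their Rik symbol there. Of the 65, 11 had another name among the table's synonyms. Several of these names point to a role: 1110017D15Rik is also Smrp1, spermatid manchette-related protein, the manchette being the microtubule skirt that shapes the spermatid head. 1700019D03Rik is also smAKAP, a small membrane protein that anchors protein kinase A. 4430402I18Rik is also Spata6l, 1700015G11Rik is also Ccdc179, 1700016K19Rik is also Liat1, 4930503B20Rik is also Samd13, 1700074P13Rik is also Tryx5, 1700020D05Rik is also mage-g2, 1700042G07Rik is also P3r3urf, 1700093K21Rik is also b2b3025Clo, and 1700123L14Rik is listed with Npap60 and Nup50 as a transcribed pseudogene. The other 54 had no such name.

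Promoter sequence is shown for 1 gene of each day of first rise, a day defined with the values below, to set the upstream letters beside the timing. Each is the 120 bases before a start site in the RefSeq promoter table (assembly GRCm38.p6), read 5′ to 3′ on the gene's strand. Each gene has the highest late level of its day of first rise among those with a single window. In 1700074P13Rik the start site lies inside the annotated extent of the gene, so its stretch does too. The capitals mark matches, on either strand, to the letters searched. 1700074P13Rik (rise on day 14) lies on the minus strand at chr6:40940558-40940677, 1700086L19Rik (day 18) on the plus strand at chr12:74284156-74284275, 1700003F12Rik (day 20) on the plus strand at chr2:154548784-154548903 and 2610318N02Rik (day 30) on the minus strand at chr16:17125203-17125322.
1700074P13Rik: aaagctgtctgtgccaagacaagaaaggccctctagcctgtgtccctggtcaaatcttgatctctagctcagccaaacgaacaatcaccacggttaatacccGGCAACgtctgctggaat
1700086L19Rik: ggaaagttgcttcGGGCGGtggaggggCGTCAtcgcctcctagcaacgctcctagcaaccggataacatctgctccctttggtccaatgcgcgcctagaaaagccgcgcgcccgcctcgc
1700003F12Rik: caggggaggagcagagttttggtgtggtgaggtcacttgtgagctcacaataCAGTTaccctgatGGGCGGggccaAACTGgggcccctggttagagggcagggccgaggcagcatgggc
2610318N02Rik: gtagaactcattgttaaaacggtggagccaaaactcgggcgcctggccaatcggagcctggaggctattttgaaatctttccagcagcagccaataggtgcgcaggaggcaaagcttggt
The first holds GGCAAC, which is GTTGCC on the other strand, the second GGGCGG and CGTCA, which is TGACG on the other strand, the third GGGCGG between CAGTT and its complement AACTG, and the fourth none of them.

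Of the 65 genes, 57 had 74 promoter windows of 300 bases, 250 before the start and 50 after it, among 32851 windows in the table. A gene can have several, 7 in 1700019D03Rik. Of 342 other genes that met the same intensity thresholds, 275 had 349 windows. The full cAMP response element TGACGTCA, the site of CREB and CREM factors, was in 0 of 74 windows against 1.79% of all windows. Its shorter core TGACG, which the full element contains, was in 16.2% against 20.8%. GTTGCC, part of the site of RFX factors, was in 13.5% against 12.5% of all windows and 25.8% of the windows of the other genes that met the thresholds. The MYB-like letters AACNGTC were in 12.2% against 8.01% and AACTG in 56.8% against 44.8%, with 10.9% and 51.6% in those other genes. A window with AACTGTC counts for both. TATAAA was in 6.76% against 13.6% and the GC box GGGCGG in 28.4% against 35.7%. These are shares of matching letters on both strands and describe no binding.

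The 65 genes ranged from 1018 (1700011L22Rik) to 5236 units (1700123L14Rik) over days 30 and 35, with a median of 1662, and 28 reached 2000. Over days 0 to 8 their means ran from 1.60 to 80.8 with a median of 7.38. Just inside the late threshold, above 1700011L22Rik, were 1700020N01Rik at 1061, 4933402J07Rik at 1080, 1700018F24Rik at 1084 and 2810408I11Rik at 1115. Just outside it were 1700052I22Rik at 978, 1700001K19Rik at 955, 1700102P08Rik at 949, 1700018L02Rik at 941 and 1700027F06Rik at 936. At the early threshold the highest inside were 2810408I11Rik and 1700008J07Rik, both at 80.8, then 2810408A11Rik at 51.8, 2610318N02Rik at 41.8 and 0610009L18Rik at 40.6. The nearest outside were D130020L05Rik at 107, 1110032A03Rik at 185, 2810025M15Rik at 197, 1700037H04Rik at 289 and 1700018B24Rik at 313.

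A gene's first rise was taken as the first day after day 8 from which, on that and every later day, both arrays stood at 100 units or more and at least 2 times the highest of its 8 arrays of days 0 to 8. By this measure 12 of the 65 genes rose first on day 14, 19 on day 18, 9 on day 20 and 25 on day 30, and none on day 10 or 35. The choice of genes requires a rise somewhere between days 8 and 30, so the days are a description without a test. The day 10 mean differed from the day 8 mean by -1.01 to 0.93 on the log2 scale, with a median of -0.02.

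**Figure D1:**
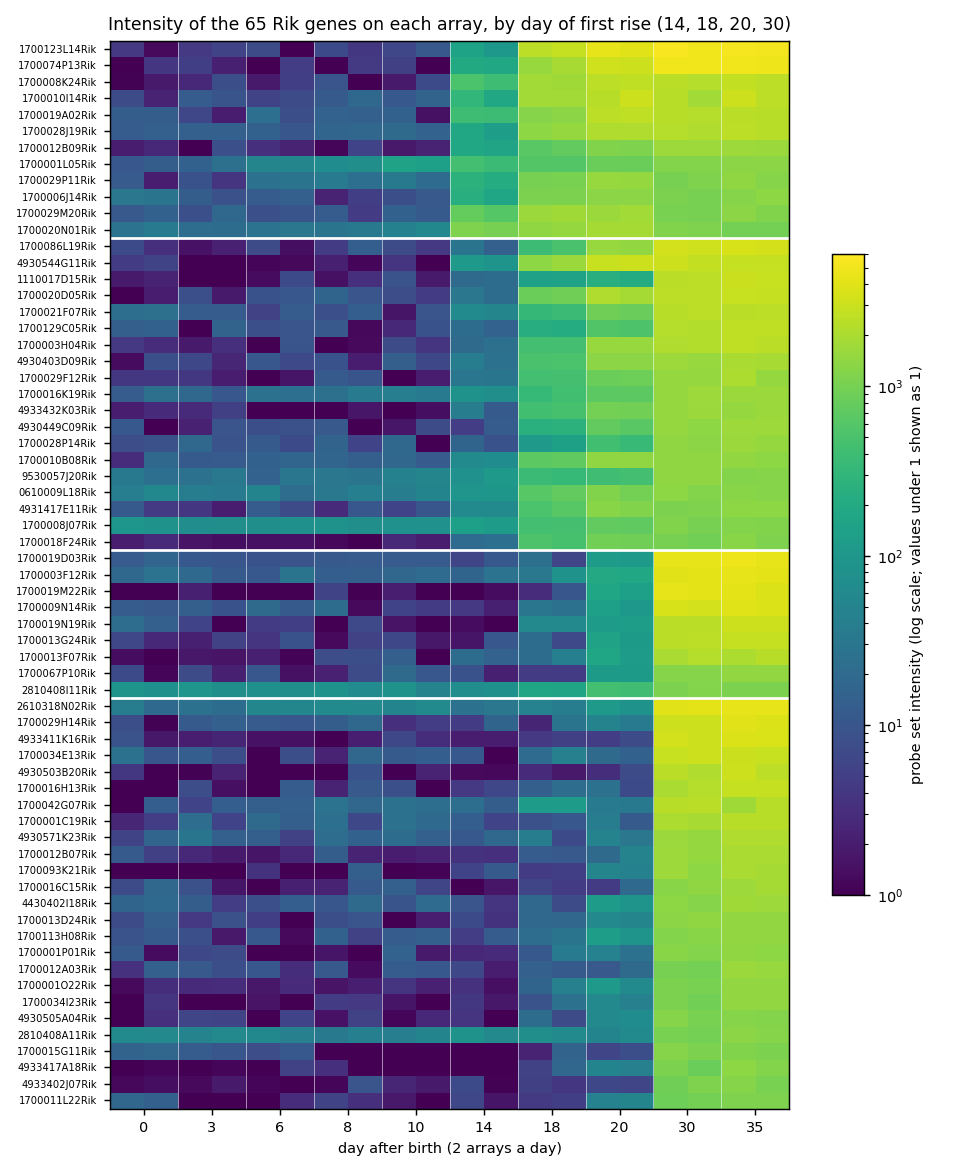
Intensity of each of the 65 genes (rows, grouped by day of first rise) on each of the 20 arrays (columns, 2 for each day), on a logarithmic colour scale with values under 1 drawn as 1. The 12 genes that rose on day 14 stand at 100 units or more from day 14, while the 25 that rose on day 30 had day 20 means of at most 8.08% of their late mean; 5 of the 25 pass 100 units on at least 1 array before day 30, as 1700042G07Rik does on day 18 (120 and 123).

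The 12 genes that rose on day 14 were 1700123L14Rik, 1700074P13Rik, 1700008K24Rik, 1700010I14Rik, 1700019A02Rik, 1700028J19Rik, 1700012B09Rik, 1700001L05Rik, 1700029P11Rik, 1700006J14Rik, 1700029M20Rik and 1700020N01Rik. 1700123L14Rik, the strongest late, had 0.765 to 7.47 units on its 8 early arrays with a median of 4.29, then 6.43 and 11.4 on day 10, 153 and 103 on day 14, 2514 and 2808 on day 18, 4366 and 4026 on day 20, 5517 and 5042 on day 30 and 5314 and 5071 on day 35. It went on climbing through day 20 after its entry on day 14, and its day 14 arrays lay above all 10 earlier ones. 1700074P13Rik had 0.297 to 4.97 units early (median 3.04), 5.24 and 0.271 on day 10, 196 and 177 on day 14, 1579 and 1933 on day 18, 3206 and 3071 on day 20, 4961 and 5019 on day 30 and 4896 and 4786 on day 35. The long noncoding RNA 1700008K24Rik had 0.847 to 10.0 units early (median 2.24), 1.90 and 7.15 on day 10, 512 and 403 on day 14, 1784 and 1714 on day 18, 2560 and 2580 on day 20, 2464 and 2310 on day 30 and 2726 and 2548 on day 35. Its arrays of day 20 lay within the range of its 4 late arrays. 1700010I14Rik had 2.30 to 19.2 units early (median 8.49), 10.9 and 15.7 on day 10, 320 and 176 on day 14, 1811 and 1804 on day 18, 2324 and 3140 on day 20, 2370 and 1772 on day 30 and 3146 and 2510 on day 35. Its 2 arrays of a day lay wide apart on days 14, 20, 30 and 35 but close together on day 18.

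Across the 12, the day 20 mean was 107% of the late mean in the median, from 63.9% to 173%. Those furthest above it were long noncoding RNAs. 1700020N01Rik had 1113 and 1024 units on day 14 and 1836 and 1837 on day 20, against 1173 and 1112 on day 30 and 968 and 991 on day 35, so that day 20 stood at 173% of the late mean. 1700029M20Rik had 764 and 615 on day 14, 1616 and 1825 on day 20, 1043 and 1015 on day 30 and 1339 and 1144 on day 35, with day 20 at 152%. In both genes the day 20 arrays lay above all 4 late arrays. 1700001L05Rik was the only one of the 12 with both day 10 arrays above 100 units, at 152 and 138, against 10.5 to 74.8 on its early arrays; the lower day 10 array fell short of 2 times the highest early one.

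The 19 genes that rose on day 18 were 1700086L19Rik, 4930544G11Rik, 1110017D15Rik, 1700020D05Rik, 1700021F07Rik, 1700129C05Rik, 1700003H04Rik, 4930403D09Rik, 1700029F12Rik, 1700016K19Rik, 4933432K03Rik, 4930449C09Rik, 1700028P14Rik, 1700010B08Rik, 9530057J20Rik, 0610009L18Rik, 4931417E11Rik, 1700008J07Rik and 1700018F24Rik. The long noncoding RNA 1700086L19Rik had 1.39 to 13.5 units early (median 3.92), 7.34 and 4.21 on day 10, 28.6 and 14.2 on day 14, 393 and 502 on day 18, 1556 and 1448 on day 20, 3285 and 3194 on day 30 and 3524 and 3393 on day 35. Every array from day 18 on lay above every array of an earlier day. 4930544G11Rik had 0.514 to 6.03 units early (median 1.17), 3.65 and 0.431 on day 10, 110 and 89.7 on day 14, 1357 and 1601 on day 18, 2862 and 3049 on day 20, 3070 and 2657 on day 30 and 2795 and 2800 on day 35. Only its lower array kept it from a rise on day 14. 1700020D05Rik had 0.920 to 16.3 units early (median 8.66), 7.91 and 4.64 on day 10, 31.0 and 21.6 on day 14, 840 and 919 on day 18, 2151 and 1883 on day 20, 2545 and 2487 on day 30 and 2890 and 2747 on day 35.

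1110017D15Rik, the manchette-related gene, took another course: 0.756 to 7.16 units early (median 1.66), 9.29 and 1.89 on day 10, 20.2 and 21.7 on day 14, 144 and 150 on day 18, 240 and 213 on day 20, 2451 and 2497 on day 30 and 3001 and 2889 on day 35. It was above its early range by day 14 but reached only 8.36% of its late mean on day 20, the lowest of the 19. Across the 19 the day 20 mean was 61.1% of the late mean in the median and at most 104%, in 4930544G11Rik.

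The 9 genes that rose on day 20 were 1700019D03Rik, 1700003F12Rik, 1700019M22Rik, 1700009N14Rik, 1700019N19Rik, 1700013G24Rik, 1700013F07Rik, 1700067P10Rik and 2810408I11Rik. 1700019D03Rik, the kinase anchor, had 8.92 to 17.0 units early (median 11.2), 12.01 and 12.2 on day 10, 6.18 and 11.0 on day 14, 25.2 and 6.19 on day 18, 123 and 107 on day 20, 4372 and 4301 on day 30 and 4762 and 4357 on day 35. Its 2 arrays of day 18 stood on either side of its early range, and day 20 was clear of it. 1700003F12Rik had 11.1 to 28.7 units early (median 16.5), 17.8 and 20.8 on day 10, 16.4 and 27.5 on day 14, 32.2 and 84.8 on day 18, 191 and 182 on day 20, 4074 and 4211 on day 30 and 4400 and 4228 on day 35. 1700019M22Rik, annotated as a noncoding pseudogene, had 0.546 to 5.97 units early (median 0.856), 2.08 and 0.525 on day 10, 1.01 and 1.34 on day 14, 2.97 and 10.4 on day 18, 170 and 135 on day 20, 4380 and 4260 on day 30 and 4246 and 3785 on day 35. 1700009N14Rik had 1.26 to 21.4 units early (median 12.1), 5.72 and 4.74 on day 10, 4.20 and 2.15 on day 14, 30.5 and 26.2 on day 18, 134 and 102 on day 20, 3546 and 3302 on day 30 and 3944 and 3838 on day 35. These entries were small: over the 9 genes day 20 was 4.50% of the late mean in the median, from 2.59% to 38.6%, the highest being 2810408I11Rik.

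The 25 genes that rose on day 30 were 2610318N02Rik, 1700029H14Rik, 4933411K16Rik, 1700034E13Rik, 4930503B20Rik, 1700016H13Rik, 1700042G07Rik, 1700001C19Rik, 4930571K23Rik, 1700012B07Rik, 1700093K21Rik, 1700016C15Rik, 4430402I18Rik, 1700013D24Rik, 1700113H08Rik, 1700001P01Rik, 1700012A03Rik, 1700001O22Rik, 1700034I23Rik, 4930505A04Rik, 2810408A11Rik, 1700015G11Rik, 4933417A18Rik, 4933402J07Rik and 1700011L22Rik. 4933411K16Rik had 0.884 to 9.23 units early (median 1.89), 6.65 and 3.14 on day 10, 1.91 and 1.96 on day 14, 4.26 and 5.25 on day 18 and 4.87 and 7.42 on day 20, and then 3288 and 3115 on day 30 and 3742 and 3688 on day 35. Its day 20 arrays were still inside its early range. 1700034E13Rik had 0.547 to 25.8 units early (median 9.198), 11.6 and 13.7 on day 10, 11.0 and 1.02 on day 14, 21.0 and 43.9 on day 18, 20.1 and 15.04 on day 20, 2921 and 3077 on day 30 and 2995 and 2917 on day 35. 1700029H14Rik had 1.07 to 18.4 units early (median 11.9), 3.27 and 4.82 on day 10, 4.48 and 16.4 on day 14, 2.49 and 28.4 on day 18, 49.1 and 37.1 on day 20, 3134 and 3101 on day 30 and 3999 and 3736 on day 35. 2610318N02Rik had 19.2 to 61.2 units early (median 46.0), 51.4 and 64.98 on day 10, 26.6 and 31.6 on day 14, 47.6 and 40.1 on day 18, 112 and 86.8 on day 20, 3992 and 4129 on day 30 and 4284 and 4341 on day 35. From day 10 to day 14 it fell by 0.83 ± 0.21 on the log2 scale (SE; adjusted p = 0.00772), a difference smaller than the fold minimum used below.

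Over the 25 genes, day 20 was 2.16% of the late mean in the median, from 0.178% to 8.08%, and in 10 of the 25 the lower day 20 array was still within the range of the early arrays. The day 30 mean exceeded the day 20 mean by 3.44 to 7.85 on the log2 scale, with a median of 5.25, against -0.14 for the 12 genes of day 14, 0.71 for the 19 of day 18 and 4.21 for the 9 of day 20. These differences involve the arrays that chose the genes and have no test. No array falls between days 20 and 30, so the day within that interval is unknown.

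**Figure D2:**
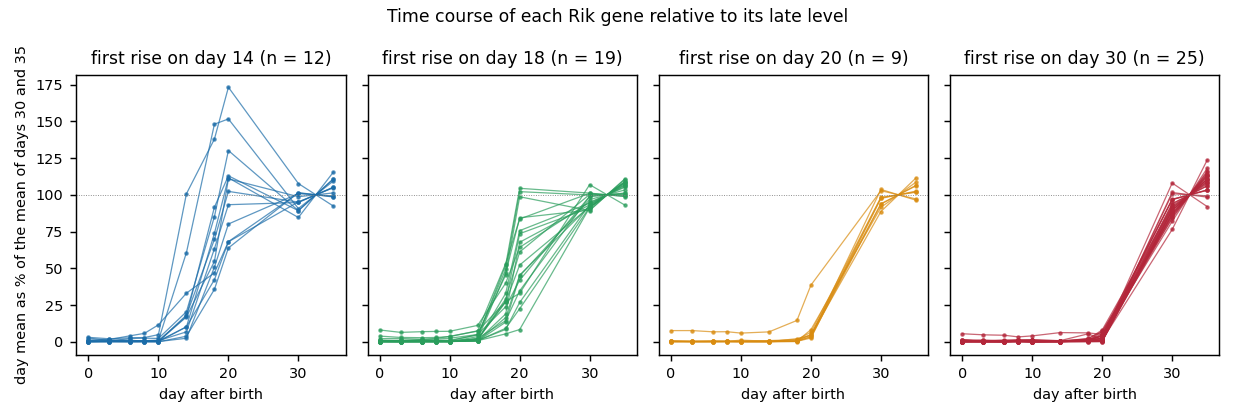
Day means of each gene as a percent of its mean over days 30 and 35, against day after birth, in 1 panel for each day of first rise; the dotted line marks 100%. On day 20 the genes of day 14 spread from 63.9% to 173%, and those of day 30 from 0.178% to 8.08%.

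Over all 65 genes, day 20 stood under 5% of the late mean in 25, between 5% and 50% in 17 and at 50% or more in 23, of which 9 were at 100% or more. The highest day mean was on day 35 in 47 genes, on day 30 in 11 and on day 20 in 7. Those 7 were 1700006J14Rik, 1700019A02Rik, 1700020N01Rik, 1700029M20Rik and 1700029P11Rik, which rose on day 14, and 1700010B08Rik and 4930544G11Rik, which rose on day 18.

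The steps between neighbouring days were tested with limma over 16429 genes, which included all 65, on log2(intensity + 7.83); a fold change on this scale understates the change of dim genes. A gene was called where the adjusted p was under 0.05 and the log2 difference at least 1 in size. The thresholds did not use days 10 to 20, which entered the choice only where 1 of several probe sets was taken by its mean over all 20 arrays (13 of the 65 genes). The thresholds require a rise between days 8 and 30, so that some calls upward are fixed by it and no direction is read from them. Neighbouring steps share the arrays of days 14 and 18.

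From day 10 to day 14, 24 of the 65 genes rose and none fell, where 4% of all genes tested rose and 0.639% fell; at an unadjusted p under 0.05, 32 members were higher and 3 lower. The median difference was 0.54 for the 65 and -0.04 for all genes. Among the 5 furthest apart were 1700008K24Rik at 5.26 ± 0.27 (SE; adjusted p = 2.65e-11), 1700029M20Rik at 5.04 ± 0.22 (adjusted p = 1.47e-12) and 1700019A02Rik at 4.80 ± 0.30 (adjusted p = 4.61e-10). The others were 1700074P13Rik at 4.24 ± 0.24 and 1700020N01Rik at 4.18 ± 0.13. Their order depends on the pseudocount, since the day 10 values are dim: with it at the 40th percentile 1700029M20Rik (4.34) passed 1700008K24Rik (4.19), and with values raised to the pooled median 1700020N01Rik came first at 4.37. The count of 24 fell to 15 where values under the pooled median intensity were raised to it, a setting chosen after the data were seen. The 24 are the 12 genes with a first rise on day 14 and 12 of the 19 of day 18.

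From day 14 to day 18, 42 of the 65 rose and none fell, where 13.6% of all genes rose and 3.64% fell; at an unadjusted p under 0.05, 50 members were higher and 0 lower. The median difference was 1.58 against 0.05 for all genes. 1700020D05Rik rose by 4.71 ± 0.23 (adjusted p = 1.75e-11), 1700123L14Rik by 4.32 ± 0.23 (adjusted p = 6.42e-11), 1700018F24Rik by 4.10 ± 0.20 (adjusted p = 2.59e-11), 4930449C09Rik by 4.04 ± 0.39 (adjusted p = 1.06e-07) and 1700086L19Rik by 3.996 ± 0.28 (adjusted p = 1.99e-09). Scaling all arrays to a common median moved the median of all genes in this step from 0.05 to -0.20 and the calls over all genes from 2239 higher and 598 lower to 1618 and 1638, while 35 members rose and none fell. Without the array whose labels name 2 days, 39 members rose.

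From day 18 to day 20, 31 of the 65 rose and 1 fell, where 2.68% of all genes rose and 0.822% fell. The median difference was 0.999 against -0.07 for all genes. 1700019M22Rik rose by 3.51 ± 0.30 (adjusted p = 8.81e-07), 1700067P10Rik by 3.29 ± 0.37 (adjusted p = 1.62e-05), 1700013G24Rik by 2.74 ± 0.37 (adjusted p = 9.41e-05), 1700019D03Rik by 2.51 ± 0.29 (adjusted p = 1.87e-05) and 4430402I18Rik, also Spata6l, by 2.50 ± 0.35 (adjusted p = 0.000113). Without day 18 replicate 1 the count was 20, and without day 18 replicate 2, the array with 2 day labels, it was 27. With a smaller pseudocount, at the 5th percentile, it was 19.

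The 1 gene that fell was 1700042G07Rik, by 1.58 ± 0.33 on the log2 scale (adjusted p = 0.00356). It had 1.03 to 27.6 units early (median 13.7), 26.3 and 23.3 on day 10, 23.6 and 13.1 on day 14, 120 and 123 on day 18, 37.2 and 34.1 on day 20, 2390 and 2431 on day 30 and 1714 and 2393 on day 35. Both day 18 arrays stood above 100 units and all 4 arrays of days 14 and 20 well below them, so it had a small peak on day 18, after a rise of 2.34 ± 0.33 from day 14 (adjusted p = 1.4e-05), before its rise to day 30. It was the only one of the 65 to be called in both directions.

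**Figure D3:**
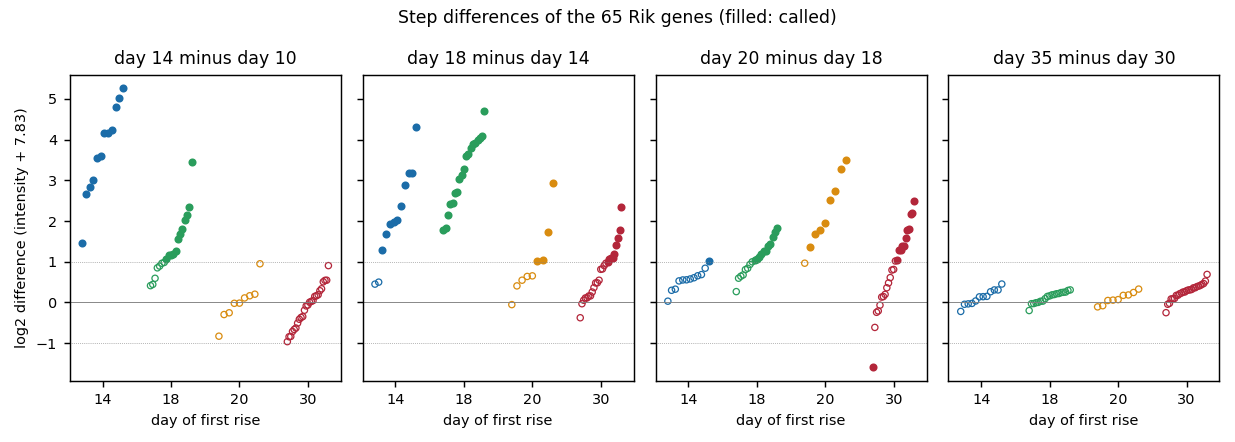
Log2 difference of each of the 65 genes in 4 steps between days, by day of first rise on the x axis; filled points passed the adjusted p and the fold minimum. The called points shift from the genes of days 14 and 18 in the step to day 14 toward those of later days in the step to day 20, and no point is filled in the step from day 30 to day 35.

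Read by day of first rise, which was taken from the same arrays and so is a description, all 12 genes of day 14, 12 of the 19 of day 18, 0 of the 9 of day 20 and 0 of the 25 of day 30 were called higher from day 10 to 14. From day 14 to 18 the counts were 10 of 12, 19 of 19, 4 of 9 and 9 of 25. From day 18 to 20 they were 1 of 12, 11 of 19, 8 of 9 and 11 of 25. A call can come well below 100 units: 1700009N14Rik of day 20 rose by 1.72 ± 0.36 from day 14 to 18 (adjusted p = 0.000812), from 4.20 and 2.15 units to 30.5 and 26.2. Over the 3 steps up to day 20, 9 genes were called higher in 3, 25 in 2, 20 in 1 and 11 in none. The 11 were 1700001C19Rik, 1700012A03Rik, 1700012B07Rik, 1700015G11Rik, 1700016C15Rik, 1700016H13Rik, 2810408A11Rik, 4930503B20Rik, 4930571K23Rik, 4933402J07Rik and 4933411K16Rik, each with its first rise on day 30.

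From day 30 to day 35, 0 of the 65 were called in either direction by limma, where 0.621% of all genes rose and 1.33% fell, and 0 had an unadjusted p under 0.05. The choice of genes set the mean of these 4 arrays but not their difference. The differences ran from -0.25 to 0.69 with a median of 0.19, positive in 52 genes and negative in 13, against a median of -0.05 over all genes. The lowest adjusted p was 0.303. The fit gives each gene a single spread for all days, so noise on its dim days can widen the SE here. Between the arrays of a day the median log2 gap was 0.08 on day 30 and 0.05 on day 35, against 0.39 on day 8. 1700012A03Rik had an SE of 0.39, with 1013 and 959 units on day 30 and 1616 and 1575 on day 35. The absence of calls therefore does not show that the genes were level. A fit to days 30 and 35 alone also called 0 members, but only 5 genes higher and 4 lower among all. With arrays scaled to a common median the medians were 0.41 for the 65 and 0.16 for all genes, and with quantile scaling 0.10 and 0.00, again with 0 members called.

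Among the 65, RefSeq annotates 48 as protein-coding, 15 as long noncoding RNA and 2 otherwise, 1700123L14Rik as a transcribed pseudogene and 1700019M22Rik as a noncoding pseudogene. Of the 15 noncoding RNAs, 12 (80.0%) had risen by day 18, 6 on day 14 and 6 on day 18, with 2 on day 20 and 1, 1700013D24Rik, on day 30. Of the 48 coding genes, 18 (37.5%) had risen by day 18, 5 on day 14 and 13 on day 18, with 6 on day 20 and 24 on day 30. On day 20 the noncoding RNAs stood at 68.1% of their late mean in the median and the coding genes at 5.05%. The 2 kinds overlapped, with ranges of 3.95% to 173% and 0.178% to 130%. The lowest noncoding value, 3.95%, was that of 1700013D24Rik, and the lowest coding value, 0.178%, that of 4933411K16Rik. The split was of a like size with a floor of 50 units (12 and 19 genes by day 18), with a floor of 200 (12 and 16) and with a 4-fold minimum (12 and 18). Called higher were 9 of 15 noncoding and 14 of 48 coding genes from day 10 to 14, 12 and 29 from day 14 to 18, and 7 and 23 from day 18 to 20. Genes are not replicates, the kinds were compared after earlier results were known, and the difference in timing was not tested.

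**Figure D4:**
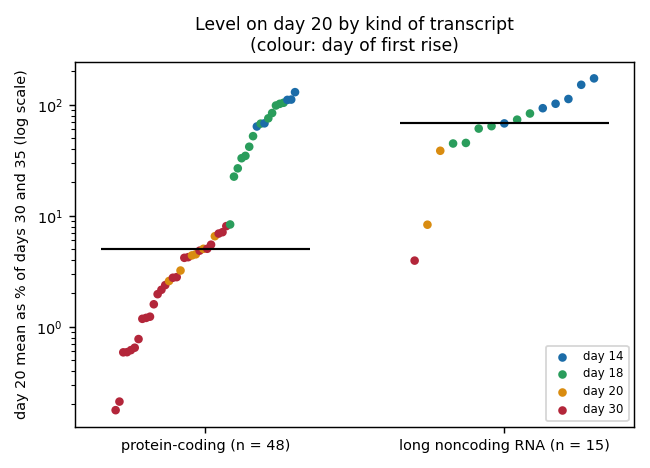
Day 20 mean as a percent of the mean of days 30 and 35, on a logarithmic axis, for the 48 protein-coding genes and the 15 long noncoding RNAs; points are genes, coloured by day of first rise. The noncoding RNAs lie mostly in the upper part, with a median of 68.1% against 5.05%.

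Features that the thresholds did not use were compared as well. The clone prefix is not independent of the choice, since a clone from a testis library comes from a transcript present in testis. Of their clones, 58 (89.2%) have a prefix of the RIKEN testis libraries, 47 of them 1700, 6 of them 4930, 4 of them 4933 and 1 of them 4931, against 617 of the 1294 Rik genes (47.7%). None lies on the X chromosome, against 48 (4.07%) of the 1180 Rik genes matched to the gene table, 3.42% of all genes matched and 7 (2.05%) of 342 other genes that met the same thresholds. At such shares 0 of 65 is close to the background. They lie on 19 chromosomes. Long noncoding RNAs make up 23.1% of the 65 but 67.8% of the 1180 matched Rik genes.

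Outside the Rik names, 342 genes met the same 2 thresholds, 333 of them (97.4%) protein-coding. Their first rise was on day 10 in 6 (1.75%), day 14 in 93 (27.2%), day 18 in 84 (24.6%), day 20 in 54 (15.8%) and day 30 in 105 (30.7%). The Rik genes had 18.5%, 29.2%, 13.8% and 38.5% on days 14, 18, 20 and 30. On day 20, 46.5% of the other genes were at 50% or more of their late mean, with a median of 27.4%, against 35.4% of the Rik genes, with a median of 8.32%. From day 10 to 14, 161 of the 342 (47.1%) rose against 36.9% of the Rik genes, from day 14 to 18, 234 (68.4%) against 64.6%, and from day 18 to 20, 122 (35.7%) against 47.7%. From day 30 to 35, 1 of the 342 rose. These differences between the sets were not tested.

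Germ cell marker lists give the same arrays a time scale. Of 19 measured markers of pachytene spermatocytes, the cells of the long meiotic stage, 1 first rose on day 10, 11 on day 14, 5 on day 18 and 1 on day 30. The remaining 1 did not meet the measure of first rise. In the steps to days 14, 18 and 20, 16, 14 and 4 of the 19 rose and none fell. Of 24 round spermatid markers, 1 first rose on day 10, 6 on day 14 and 2 on day 18. A further 4 first rose on day 20 and 11 on day 30. In the same 3 steps 9, 14 and 8 rose, with none falling. Those that rose by day 14 did so on the same days as most pachytene markers. This list therefore does not date the first round spermatids. Of 24 elongating spermatid markers, 1 rose on day 18, 10 on day 20 and 11 on day 30, and 2 did not rise by this measure. In the steps 3, 12 and 13 of the 24 rose, and 1 fell in the step to day 14. Ldhc, the testis form of lactate dehydrogenase, averaged 18.1 units on day 10 and 2176 on day 14. Acrv1, a protein of the acrosome, averaged 33.1 units on day 18, 186 on day 20 and 1729 on day 30. It was 1 of the 4 round spermatid markers that first rose on day 20. The 3 round spermatid markers strongest on days 30 and 35, Fabp9, Crisp2 and Dkkl1, first rose on day 14, with means of 1490, 382 and 372 units. Acrv1 is not among these strongest markers and is given as an example of a later rise. Prm1, the protamine that packs sperm DNA, averaged 25.9 units on day 20 and 9494 on day 30. Prm2 averaged 61.0 and 11550 units and Tnp1, a transition protein, 44.7 and 9678 on the same days. The 25 Rik genes with a first rise on day 30 share the interval from day 20 to 30 with these transcripts and with the 11 round spermatid markers of day 30. Of the 25, 11 had already been called higher from day 18 to 20. A link between these genes was not tested.

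**Figure D5:**
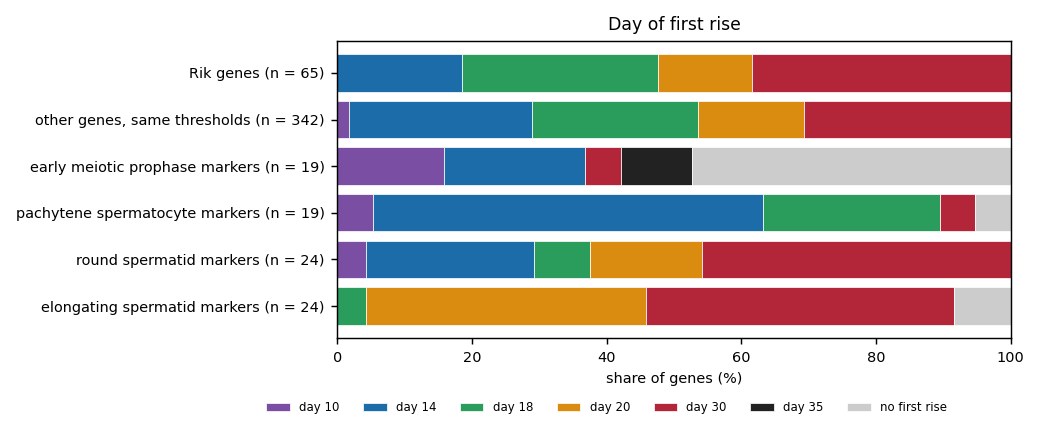
Share of genes by day of first rise for the 65 Rik genes, the 342 other genes that met the same thresholds and the marker lists. The Rik genes have no first rise on day 10 and 38.5% on day 30, the other genes 30.7% on day 30.

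Somatic and other germ cell markers moved as follows. None of 15 Sertoli and none of 10 Leydig markers met the measure of first rise, and 12 of 13 spermatogonial markers did not. Of 19 early meiotic prophase markers 3 first rose on day 10, 4 on day 14, 1 on day 30 and 2 on day 35, and 9 did not meet the measure. The measure requires every later day to stay high, so markers that rise and then fall are dated late or not at all. In the step to day 14, 8 of the 19 rose and 0 fell. Their summed intensity was 4783 and 4810 units on day 8, 16660 and 17025 on day 14, and 11991 and 13683 on day 30. Of 7 peritubular myoid markers 1, Actg2, a smooth muscle actin, rose on day 30, from a mean of 138 units on day 20 to 1166. Of 13 macrophage markers Cd74 first rose on day 20 and H2-Ab1 on day 30, and 11 did not meet the measure. The summed macrophage markers went from 976 and 1026 units on day 0 to 3003 and 3755 on day 14. On day 35 the sums were 1804 and 2051. The summed Sertoli markers fell from 36250 and 36448 units on day 0 to 13935 and 14850 on day 30, while the summed elongating spermatid markers went from 4300 and 4922 on day 20 to 107524 and 110504 on day 30. The summed Leydig markers also went up between days 20 and 30, from 3012 and 3084 units to 5057 and 5199. The list did not move as one. Cyp17a1, an enzyme of androgen synthesis, averaged 557 units on day 20 and 2424 on day 30. Cyp11a1 averaged 443 and 824 units on these days, and Hsd3b1 fell from 1119 to 654. Of 10 markers of the epididymis, the duct beside the testis, 9 did not meet the measure, and Lcn2 averaged 884 units on day 30 and 1844 on day 35. The part of these shifts in the Rik genes' values was not tested.

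The spread between the 2 arrays of a day shrank as the genes rose. The median coefficient of variation over the 65 was 2.61% on day 35, 3.90% on day 30, 8.60% on day 20, 10.9% on day 18 and 24.8% on day 14. Values of a few units on the early days are at the dim end of the arrays and carry no order. The 27 bacterial control probe sets had a median of 1.35 units on day 14 and 5.98 on day 18, so the dim end itself lay higher on days 18 to 35 (median 8.22) than on days 0 to 14 (1.84). Its part in the small steps under 100 units was not tested.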

How the data were processed

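Per the labels, Trizol was used to extract total RNA, which a one-cycle kit amplified from the 3' end with biotin as the label, for 20 single-channel arrays. The deposited intensity values (45101 probe sets) are linear; how probes were summarised is not stated in the sources used here. They were not normalized further. Of the probe sets, 34945 carry 1 symbol, 932 several and 9160 none in the annotation used.

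Differences were fitted with limma 3.58.1 (lmFit, eBayes with trend) on log2(intensity + 7.83, the pooled 20th percentile), day as a factor, over 16429 genes above the 40th percentile of their array on at least 2 arrays, with Benjamini-Hochberg adjustment, and tested on simulated data. Named genes are the 4 strongest per day of first rise and the 5 largest called differences per step and direction. Also named are those that peak before day 30, have another name or lie nearest a threshold, and up to 3 markers per list. Acrv1 is named outside this rule. 1700001L05Rik on day 10, 1700009N14Rik in the step to day 18 and the fall of 2610318N02Rik were picked after their values were seen. The members, lists and motifs were chosen with earlier results of these data known. Alternatives changed the pseudocount, filter, floor, scaling, thresholds and model, or left out 1 array.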

Additional observations from a re-analysis of the deposited data

How the results depend on the processing

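For the 5 largest called differences per step and direction, all 288 alternative values kept their direction and their side of the threshold. These were picked by their size, and the other steps named in the text were not followed in this way. Over all calls less was kept. With the pseudocount at the 5th percentile, 12 of the 31 members called higher from day 18 to 20 were lost. Counts of members that moved by over 1.5 times were these. With values under the pooled median raised to it, chosen after seeing the data, 15 of the 65 rose from day 10 to 14 in place of 24. With no fold minimum 1 fell in that step, 2610318N02Rik, in place of 0. With the pseudocount at the 5th percentile 19 rose from day 18 to 20 in place of 31. With a floor of 200 units for the first rise 6 had risen by day 14 in place of 12. At a late threshold of 500 units 116 genes would be chosen, and at 2000 units 28, in place of 65.

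Leaving out 1 array at a time gave 22 to 26 members higher from day 10 to 14, 36 to 43 from day 14 to 18, 20 to 27 from day 18 to 20 with 1 lower throughout, and 0 from day 30 to 35, with 12 to 13 risen by day 14 and 64 to 67 genes chosen. The lowest, 20, was without day 18 replicate 1. The fit with the replicate number as a block gave 24, 42 and 31 members higher and 1 lower, and 0 from day 30 to 35. The block thus changed no count of members called, while counts over all genes moved slightly, as from 657 higher to 653 from day 10 to 14. Same-numbered arrays did not deviate together, with correlations from -0.0249 to 0.0561 over 45 pairs of days.

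Scaling to a common median gave 35 members higher from day 14 to 18 and 34 from day 18 to 20; quantile scaling gave 35 and 30. With 2 arrays a day the spread is poorly known, and dim values on days 0 to 14 limit what can be said of small early steps.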

Other observations

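Of the 65 genes, 13 had 17 further probe sets with the same single symbol. Of these 17, 3 met the same thresholds, 2 of 1700010I14Rik at 1417 and 2200 units over days 30 and 35 and 1 of 1700113H08Rik at 1785, and 4 had the same day of first rise as the probe set used. 1 more, of 1700001P01Rik, reached 900.0 units and also rose on day 30, and 1 of 1700029M20Rik reached 346 and also rose on day 14. The probe set of 1700113H08Rik that was not used rose on day 20, where the one used rose on day 30 with 129 and 90.6 units on day 20. The other 12 stayed under 100 units late, among them both further probe sets of 4930503B20Rik at 88.7 and 67.5 against 2533 for the one used, and both of 4933432K03Rik at 40.6 and 8.75 against 1563. The reason for the difference between probe sets was not tested.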
